A study of Mus musculus with 2 samples.

Results

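The cells described here were gingival monocyte-derived cells marked by transcripts of Arg1, Nos2, Inhba and Ptges. They numbered 1318 of the 21208 cells that passed quality filters, with 685 in the diabetic library and 633 in the normoglycemic library, out of 21776 deposited barcodes. A cell belonged to them if it had at least 500 UMIs (unique molecular identifiers, one per captured transcript), at least 200 genes and at most 15% mitochondrial UMIs. It also had under 3% of its UMIs from S100a8 and S100a9, under 10 C1qa, C1qb and C1qc UMIs per 10000, and no Cd3e or Cd79a. At least 5 UMIs came from Fn1, Vcan, F13a1 and Chil3, at least 5 from Arg1, Nos2, Inhba and Ptges, and fewer than 8 from Rsad2, Ifit1, Ifit2 and Ifit3. The members were thus chosen by the measured UMIs of these transcripts, and their levels are a description and support nothing else.

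The study compared the gingiva of mice with streptozotocin-induced type 1 diabetes and of normoglycemic mice in a periodontitis model. There was 1 library for each condition, and each was made from the pooled gingival cells of 4 mice, so no difference between the libraries could be tested. Diabetes was induced with streptozotocin, a beta-cell toxin, and gingival inflammation was kept up with bacteria for 2 weeks before a further 2 weeks of waiting. Both groups carried the CD11CCre-/-;FoxoLL genotype, that is, loxP sites around an exon of Foxo1 without the Cre that would delete it, on a mixed background of C57B6 and FVB. The labels describe Foxo1 protein as normal in such animals and give no age or sex. Live cells were sorted for CD45 and against CD31 and Ter-119, with 20% enrichment of CD11c+ cells, so shares of cells are shares of this sort and not of the tissue.

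Monocytes that enter inflamed tissue switch on inflammatory and tissue-remodelling genes. Arginase 1 (Arg1) and inducible nitric oxide synthase (Nos2) compete for arginine, the first making ornithine and the second nitric oxide. Inhba encodes the subunit of activin A, a TGF-beta family ligand, and Ptges the enzyme that makes prostaglandin E2 from the product of cyclooxygenase. In periodontitis, cytokines, prostaglandins and matrix-degrading enzymes of recruited myeloid cells are known to take part in the loss of gingival connective tissue and bone.

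The quality-filtered cells held 77893005 UMIs in the diabetic library (median 4631.5 per cell) and 88937087 in the normoglycemic library (median 5302.5). Members were deeper, with medians of 10253 UMIs in diabetic and 11740 in normoglycemic cells, and mitochondrial medians of 1.71% and 2.03%. The libraries shared 32 barcodes, of which 3 were members in one library and 0 in both. Levels below are CPM, the UMIs of a gene summed over the cells of a group and given as parts per 10000 of all UMIs of that group, times 100. A ratio is diabetic over normoglycemic, or members over other cells, with an exact conditional binomial 95% interval. Intervals of ratios, shares (Clopper-Pearson) and differences of shares (Newcombe) cover counting error only, not variation between mice.

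Not all diabetic members were leukocytes by their transcripts. A cell was kept as a leukocyte member if 8 leukocyte transcripts (Ptprc, Tyrobp, Fcer1g, Laptm5, Coro1a, Lcp1, Cd52 and Srgn) gave at least 20 UMIs per 10000 and 15 transcripts of fibroblasts, epithelium and other non-leukocytes gave fewer than 10, a screen chosen after the data were seen. It set apart 56 diabetic members (8.18%), against 2 normoglycemic members (0.316%). Of the 56, 46 were low in leukocyte transcripts and 10 held both kinds. In these 56 cells Dcn, a fibroblast proteoglycan, stood at 9019 CPM, Muc5b, a salivary mucin, at 3173 CPM and Ptprc, which encodes CD45, at 61.9 CPM. The 629 diabetic cells kept had 2.59 CPM of Dcn, 5.03 CPM of Muc5b and 430 CPM of Ptprc. Dcn, Muc5b and Ptprc are genes of the screen, so these levels describe what it set apart. Of the genes of the rule the 56 cells held Inhba at 601 CPM, Arg1 at 229 CPM and Fn1, which fibroblasts also make, at 1821 CPM. Results are therefore given for leukocyte members (629 diabetic and 631 normoglycemic), and for all members by the rule where the count or direction differs. Sex calls, co-detection of rule genes and leading-gene shares are given over all members, except where leukocyte members are named.

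**Figure D1:**
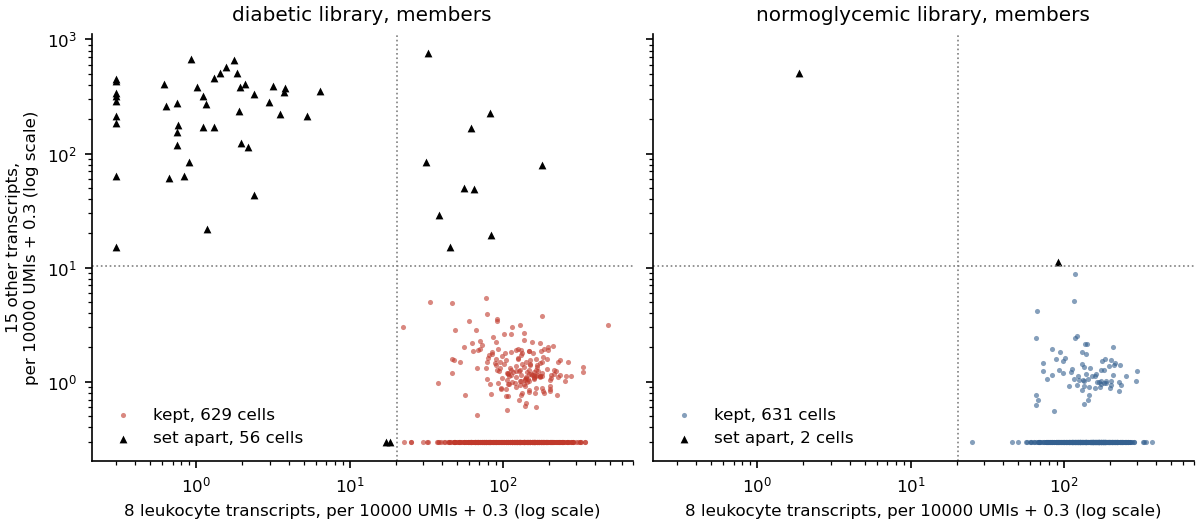
Each point is 1 member cell, diabetic library on the left and normoglycemic on the right, by 8 leukocyte transcripts (x axis) and 15 transcripts of fibroblasts, epithelium and other non-leukocytes (y axis), both per 10000 UMIs plus 0.3 on log scales, with dotted lines at the thresholds. The 56 diabetic and 2 normoglycemic cells set apart are triangles, and the 629 and 631 cells kept are dots at the lower right.

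Leukocyte members carried a monocyte-lineage profile. The 16 monocyte and macrophage markers summed to 22589 CPM in diabetic and 18918 CPM in normoglycemic members, with 0 of them at zero. The matrix glycoprotein thrombospondin 1 (Thbs1) led that sum with 8581 CPM in diabetic and 7095 CPM in normoglycemic members. The same markers summed to 23170 and 20271 CPM in the other monocyte-gate leukocytes and to 19054 and 16968 CPM in the C1q macrophages. In both of those groups Lyz2 led, so the sum alone does not set members apart. The blood monocyte markers Ccr2 and Ly6c2 were lower in members than in the other monocyte-gate leukocytes. Ccr2, the receptor for the monocyte chemoattractant Ccl2, had 176 CPM in diabetic members against 627 CPM in the other gate cells, and 172 CPM in normoglycemic members against 701 CPM. Ly6c2 had 54.9 CPM in diabetic members against 146 CPM in the other gate cells, and 102 CPM in normoglycemic members against 148 CPM. The 12 resident macrophage markers summed to 1125 CPM in diabetic and 1175 CPM in normoglycemic members, against 10919 and 11607 CPM in the C1q macrophages of the same libraries. That gap was largely set by the rule, because C1q genes are among these markers and separate the groups. F13a1, also a gene of the rule, gave 733 CPM of the diabetic and 789 CPM of the normoglycemic members' sum. Neutrophil markers summed to 3684 CPM in diabetic members against 1972 CPM in the other gate leukocytes, and to 3159 against 2353 CPM in the normoglycemic library. Dendritic cell markers summed to 81.3 against 59.0 CPM and to 89.1 against 265 CPM. The 12 T and NK cell markers summed to 243 against 76.8 CPM and to 287 against 121 CPM, of which Il7r gave 225 CPM in diabetic and 266 CPM in normoglycemic members.

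Members made up 6.68% (6.201 to 7.18) of quality-filtered diabetic cells and 5.78% (5.35 to 6.24) of quality-filtered normoglycemic cells, a difference of 0.895 percentage points (0.244 to 1.55). With leukocyte members alone the shares were 6.13% and 5.76%, and the difference, 0.367 points, had an interval from -0.270 to 1.01 that spans zero. Among the monocyte gate, the cells that pass every term except those on Arg1, Nos2, Inhba and Ptges and on the interferon genes, members were 44.7% of 1534 diabetic and 44.2% of 1431 normoglycemic cells (difference 0.420 points, -3.16 to 3.99). Among gate leukocytes they were 48.6% of 1293 diabetic and 44.8% of 1410 normoglycemic cells (3.89 points, 0.130 to 7.65). Whether the interval of the difference spans zero thus depended on which cells were counted.

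The sex calls of the members differed between the libraries. A cell was called female if it had Xist UMIs and no UMI of the Y-linked genes Ddx3y, Eif2s3y, Kdm5d and Uty, and male in the opposite case. Female cells were 28.8% of the called members in the diabetic library (142 female and 351 male) but 2.58% in the normoglycemic library (12 female and 454 male). The pools as a whole did not show that gap, with 31.8% female among called quality-filtered diabetic cells and 22.3% among normoglycemic cells, nor did the other monocyte-gate cells, with 37.5% and 25.4%. The gap was not particular to members, however. Gate cells with at least 8 UMIs of the 4 interferon genes were 61.1% female in the diabetic library (22 female and 14 male). In the normoglycemic library they were 6.52% female (3 female and 43 male). Members were 8.83% (351 of 3974) of male-called diabetic cells and 8.51% (454 of 5334) of male-called normoglycemic cells, a difference of 0.321 points (-0.827 to 1.49). Of female-called cells they were 7.65% (142 of 1856) in the diabetic library and 0.785% (12 of 1529) in the normoglycemic library, a difference of 6.87 points (5.601 to 8.21). How many of the 4 mice in each pool were female is not given, and with 1 pool a condition the mouse, its sex and its glycemia cannot be told apart. Normoglycemic members were thus nearly all male-called. Male-called values are given below for the main lists compared between the libraries and for most of the named genes. The remaining single genes compared between the libraries, among them the cytokines of the closing observations, have no male-called value here.

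The 4 genes of the member term were shared out differently in the 2 libraries. Arg1 (chr10:24915221-24927484 on the minus strand of GRCm38, GENCODE vM21) had 3017 CPM in all diabetic members and 1560 CPM in all normoglycemic members. Inhba (chr13:16011851-16031621, plus strand) had 1348 CPM in diabetic and 2883 CPM in normoglycemic members. Nos2 (chr11:78920787-78960254, plus strand) had 349 and 383 CPM, and Ptges (chr2:30889471-30929863, minus strand) had 348 and 518 CPM. Arg1 was thus the most abundant of the 4 in diabetic members and Inhba in normoglycemic members, whereas Nos2 levels lay close together. The same order held in leukocyte members, with Arg1 at 3512 and 1566 CPM and Inhba at 1480 and 2896 CPM.

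Of the genes of the monocyte term, the matrix protein fibronectin (Fn1) had 3871 CPM in diabetic and 2501 CPM in normoglycemic members. Chil3, a chitinase-like secreted protein of monocytes, had 1345 CPM in diabetic and 249 CPM in normoglycemic members. Vcan (461 and 499 CPM) and the transglutaminase F13a1 (631 and 786 CPM) lay nearer to each other. These values are over all members. In the other monocyte-gate cells Chil3 was likewise higher in the diabetic library, with 1377 and 386 CPM, and Fn1 had 1771 and 1686 CPM. T cells, which should lack the 4 genes, give the background of free RNA. Arg1 had a UMI in 77.5% of diabetic and 61.0% of normoglycemic members, at the greater depth given above, against 6.46% of 356 diabetic T cells and 2.21% of 814 normoglycemic T cells (median depths 5268 and 5750.5 UMIs). Its level in those T cells was 11.4 CPM in the diabetic and 3.27 CPM in the normoglycemic library.

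Many members held transcripts of more than 1 of the 4 genes. In the diabetic library 201 members had UMIs of 1 of them, 207 of 2, 165 of 3 and 112 of all 4. In the normoglycemic library these numbers were 154, 202, 187 and 90. Thinned to 2000 UMIs a cell, 41 of 674 diabetic members had none of the 4 genes, 296 had 1, 173 had 2, 110 had 3 and 54 had 4, and of 632 normoglycemic members 17 had none, 232 had 1, 210 had 2, 136 had 3 and 37 had 4. Arg1 and Nos2, the enzymes that share a substrate, were found together in 28.9% of diabetic and 19.6% of normoglycemic members. After thinning the shares with both were 20.3% of 674 diabetic and 12.2% of 632 normoglycemic members. Inhba and Ptges were found together in 40.3% of diabetic and 48.5% of normoglycemic members, or 21.4% and 31.6% after thinning. At the edge of the rule, 24 diabetic members had exactly 5 UMIs of the 4 genes while 34 gate cells with 4 UMIs fell outside. The Fn1 level was 2862 CPM inside and 1985 CPM outside. The normoglycemic library had 13 cells at the edge inside, with 2222 CPM of Fn1, and 17 outside, with 1640 CPM.

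Each member was then sorted by which of the 4 genes had the most UMIs. Arg1 led in 409 diabetic members (59.7%, 55.9 to 63.4) and 190 normoglycemic members (30.02%, 26.5 to 33.8), a difference of 29.7 points (24.5 to 34.7). Inhba led in 203 diabetic (29.6%) and 361 normoglycemic members (57.0%), a difference of -27.4 points (-32.4 to -22.1). Nos2 led in 28 and 25 cells, Ptges in 37 and 48, and 8 and 9 cells were tied. The Ptges-led difference was -2.18 points (-4.93 to 0.487). Among leukocyte members the differences were 34.0 points (28.6 to 39.0) for Arg1 and -30.3 points (-35.4 to -25.0) for Inhba. For Ptges it was -3.79 points there, with an interval from -6.43 to -1.23 that excludes zero. The Arg1-led share turned round with the sex call. In male-called members Arg1 led in 68.1% of 351 diabetic and 28.0% of 454 normoglycemic cells, a difference of 40.1 points (33.5 to 46.2). In female-called members it led in 26.1% of 142 diabetic and 66.7% of 12 normoglycemic cells, a difference of -40.6 points (-61.2 to -11.9) that rests on those 12 cells. Within the diabetic library alone the Arg1-led share was thus 68.1% of male-called and 26.1% of female-called members, which came from different mice.

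**Figure D2:**
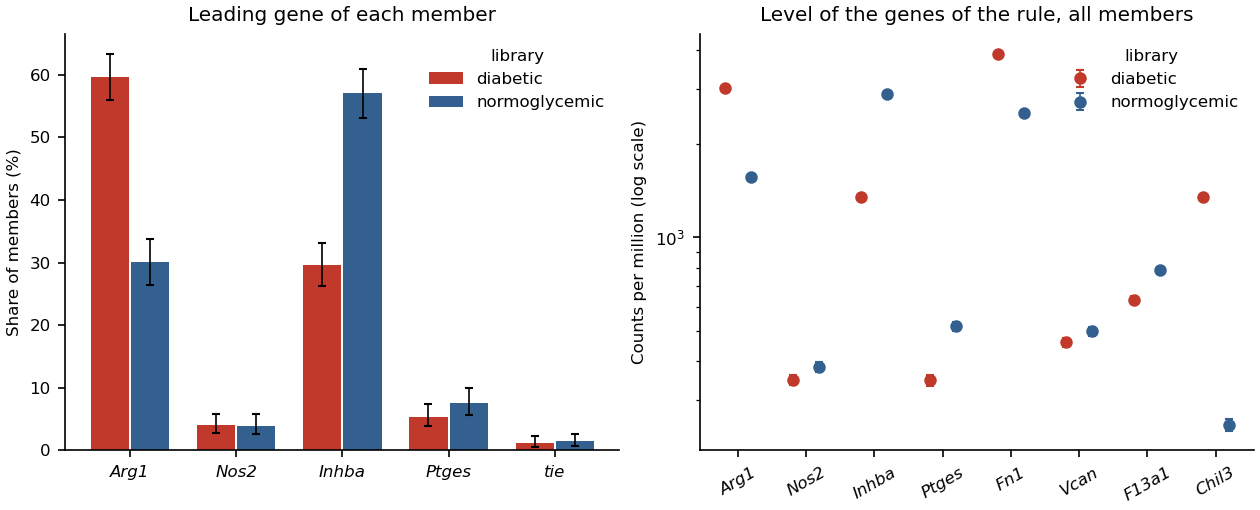
Left, the share of all members (%, y axis) in which each of Arg1, Nos2, Inhba and Ptges had the most UMIs, diabetic in red and normoglycemic in blue, with Clopper-Pearson 95% intervals. Right, the level of the 4 genes and of the 4 monocyte-term genes in CPM (log axis), with Poisson 95% intervals; Arg1, Fn1 and Chil3 are higher in diabetic members and Inhba and Ptges in normoglycemic members.

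Cells led by Arg1 and by Inhba differed in other transcripts too. The genes named here were picked because they lay past 1.5-fold the same way in both libraries. Their shared direction was thus fixed by that choice and is no finding. Among leukocyte members there were 402 Arg1-led and 168 Inhba-led diabetic cells, and 189 and 360 normoglycemic cells. Sex calls differed between them in the diabetic library, with 236 male-called and 35 female-called Arg1-led cells against 67 and 67 Inhba-led cells. In the normoglycemic library these were 126 and 8 against 275 and 4. Leading gene and mouse are thus partly mixed in the diabetic library, and no male-called values are given for this contrast. Over all 5983 genes with at least 10 CPM, 15.1% were past 1.5-fold higher and 5.21% past 1.5-fold lower in Arg1-led cells of the diabetic library, against 11.4% and 3.63% in the normoglycemic library. Several named genes were higher in Arg1-led cells. The chemokine platelet factor 4 (Pf4) had 2443 CPM in Arg1-led and 379 CPM in Inhba-led diabetic members, and 1132 and 290 CPM in normoglycemic members. Apoe, a lipid carrier, had 2475 and 575 CPM in the diabetic library and 1402 and 589 CPM in the normoglycemic library. The lipid-sensing receptor Trem2 was 4.37-fold higher in Arg1-led cells of the diabetic and 3.70-fold of the normoglycemic library. Mertk, an apoptotic-cell receptor, was 3.95-fold and 4.23-fold higher, the transcription factor Maf 4.38-fold and 2.85-fold, and the eosinophil chemoattractant Ccl24 5.43-fold and 5.08-fold. Of 21 measured lipid-associated macrophage genes, 10 were past 1.5-fold higher and 1 lower in the diabetic library (median log2 ratio 0.48), and 8 and 0 in the normoglycemic library (0.50), where the medians of all genes were 0.15 and 0.11.

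Other named genes were lower in Arg1-led than in Inhba-led cells. The antiprotease Slpi had 5354 CPM in Arg1-led and 13921 CPM in Inhba-led diabetic members, and 6721 and 11690 CPM in normoglycemic members. Serum amyloid A3 (Saa3) had 2159 and 5676 CPM in the diabetic library and 1686 and 7295 CPM in the normoglycemic library. The IL-1 receptor antagonist Il1rn was 0.486-fold and 0.514-fold as high in Arg1-led cells, the granulocyte growth factor Csf3 0.405-fold and 0.521-fold, and Procr, the endothelial protein C receptor, 0.106-fold and 0.247-fold. Of 17 measured inflammatory cytokines and antagonists, 0 were past 1.5-fold higher and 7 lower in Arg1-led diabetic cells (median -0.49), and 0 and 5 in normoglycemic cells (-0.36). Other lists differed between the libraries. Of 21 hypoxia genes outside glycolysis, 11 were higher and 1 lower in diabetic cells (0.61), against 0 and 0 in normoglycemic cells (0.17). Genes inducible by interferon gamma had medians of -0.53 in diabetic and 0.23 in normoglycemic cells. EGF receptor ligands and growth factors had -0.31 and 0.51, and cell cycle genes -0.54 and 0.35. Some low ratios rest on very few cells. Ccl17, at 0.022-fold and 0.025-fold, came from 5 Inhba-led diabetic cells, 1 of which held 130 of the 134 UMIs, and from 8 Inhba-led normoglycemic cells. For Ccl5, at 0.013-fold and 0.028-fold, the top 5% of Inhba-led cells held 93.2% of the UMIs in the diabetic and 98.0% in the normoglycemic library. MHC class II genes were likewise concentrated. Of the H2-Ab1 UMIs, 89.4% in diabetic and 72.5% in normoglycemic members lay in the top 5% of cells. Sorting by leading gene used the genes of the rule, and no test was made on it.

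**Figure D3:**
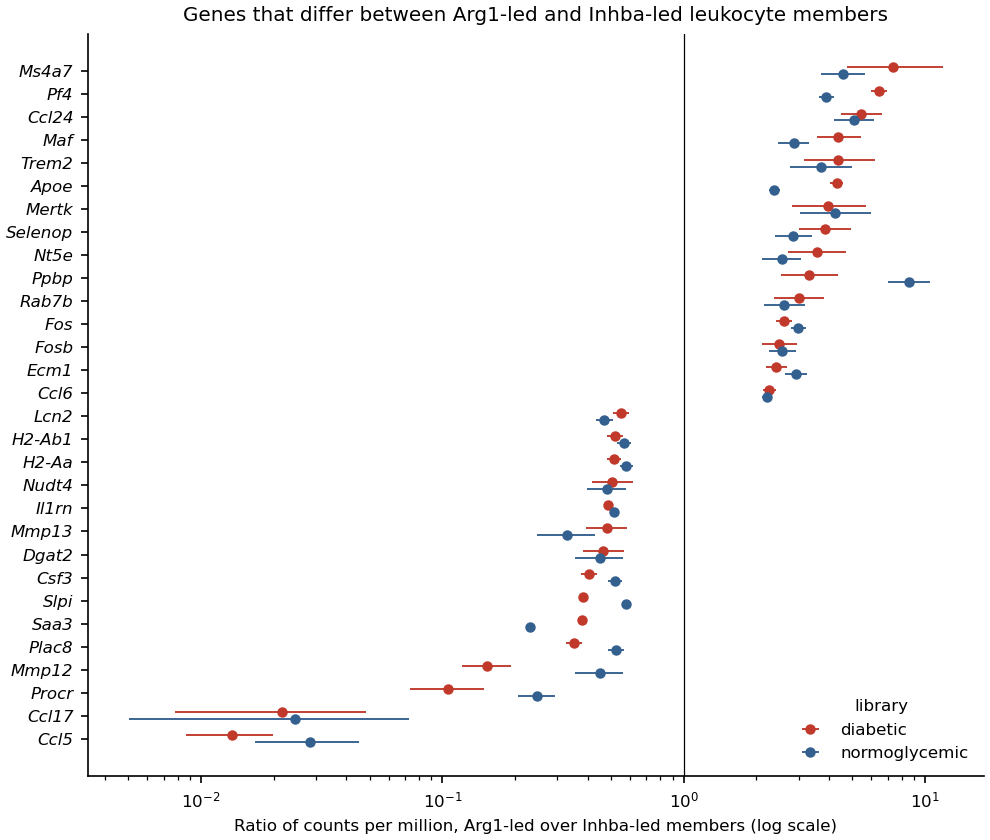
Ratio of CPM in Arg1-led over Inhba-led leukocyte members (x axis, log scale) for the 15 genes farthest above and the 15 farthest below 1.5-fold in both libraries, with 95% counting intervals, diabetic in red and normoglycemic in blue. Ms4a7, Pf4 and Ccl24 lie highest in the diabetic library and Ppbp in the normoglycemic library, and Ccl5 and Ccl17 lie lowest. The points of the 2 libraries lie on the same side of 1 for every gene plotted, which the choice of genes required.

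Against the other monocyte-gate leukocytes (627 diabetic and 716 normoglycemic cells with fewer than 5 UMIs of the 4 genes), members were high in neutrophil-attracting chemokines, in hypoxia and glycolysis genes and in coagulation genes, and low in MHC class II genes. The contrast is the one the rule was built on, so the values describe the cells and are no test. Of 6692 genes measured in both libraries, 249 (3.72%) were past 2-fold higher and 648 (9.68%) past 2-fold lower in members of both. With all members and all gate cells by the rule, 214 of 6884 genes (3.11%) were past 2-fold higher and 446 (6.48%) past 2-fold lower. The median gene was lower in members, with a log2 ratio of -0.30 in the diabetic and -0.30 in the normoglycemic library. At 1.5-fold, the threshold used for the gene lists, 8.19% of genes were higher and 29.9% lower in diabetic members, and 11.5% and 36.4% in normoglycemic members.

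Among the secreted signals, Cxcl3, a neutrophil chemoattractant, had 10941 CPM in diabetic members against 824 CPM in other gate cells, and 11577 against 885 CPM in the normoglycemic library, ratios of 13.3 (12.9 to 13.7) and 13.1 (12.8 to 13.4). Cxcl2, the most abundant chemokine, had 42242 CPM in diabetic and 44566 CPM in normoglycemic members, 2.96-fold and 2.99-fold the other gate cells. Cxcl1 was 4.46-fold and 3.57-fold higher and Cxcl5 17.2-fold and 9.43-fold. Csf3, the growth factor of granulocytes, had 482 CPM in diabetic members against 51.7 CPM in other gate cells, and 850 against 77.3 CPM in the normoglycemic library. Il1a was 8.39-fold and 9.25-fold higher. Il1b, the most abundant cytokine with 15554 CPM in diabetic and 14222 CPM in normoglycemic members, was 1.66-fold and 1.73-fold higher, the other gate cells holding 9371 and 8206 CPM. Of the 9 measured CXC chemokines, 7 were past 1.5-fold higher and 1 lower in the diabetic library (median log2 ratio 2.16), and 5 and 2 in the normoglycemic library (0.72). Of 18 inflammatory cytokines and antagonists, 11 were higher and 4 lower in the diabetic library (0.85), and 9 and 4 in the normoglycemic library (0.44). The neutrophil marker sum was also higher in members than in other gate cells in both libraries (above), and its part in these values was not tested.

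Of 14 matrix genes 8 were past 1.5-fold higher and 1 lower in diabetic members (median 0.88), and 6 and 2 in normoglycemic members (0.39). The collagenase Mmp13 had 75.7 CPM in diabetic members against 3.19 CPM in other gate cells, and 98.1 against 4.78 CPM in the normoglycemic library, ratios of 23.7 (15.3 to 38.6) and 20.5 (15.1 to 28.5). Osteopontin (Spp1), a secreted matrix phosphoprotein, had 2398 against 328 CPM and 4063 against 226 CPM, ratios of 7.30 and 17.9. Serpinb2, an inhibitor of plasminogen activators, was 10.8-fold and 14.4-fold higher. Tissue factor (F3), which starts clotting, was 6.79-fold and 7.33-fold higher, and thrombospondin 1 4.63-fold and 3.93-fold. Of 13 measured genes of coagulation and plasminogen activation, 10 were past 1.5-fold higher and 1 lower in each library, with medians of 1.47 in the diabetic and 1.51 in the normoglycemic library. Ptgs2, the cyclooxygenase upstream of Ptges, had 11010 CPM in diabetic and 10947 CPM in normoglycemic members, 3.59-fold and 3.97-fold the other gate cells. The arginine transporter Slc7a2 was 11.3-fold and 17.9-fold higher, and Acod1, the itaconate-making enzyme, 4.85-fold and 5.25-fold.

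Genes known to be induced by low oxygen were higher in members, as were genes of glycolysis. Hypoxia-inducible factor 1 binds the core ACGTG and switches on genes of glycolysis, lipid storage, mitophagy and its own feedback. Egln3, the hydroxylase that marks the factor for destruction, had 35.2 CPM in diabetic members against 4.56 CPM in other gate cells, and 63.8 against 4.89 CPM in the normoglycemic library, ratios of 7.73 and 13.1. Bnip3, a mitophagy receptor, had 237 against 37.2 CPM and 351 against 29.1 CPM, ratios of 6.37 and 12.1. The lipid-droplet protein Hilpda had 873 against 184 CPM and 742 against 129 CPM, ratios of 4.75 and 5.74. The oxidative folding enzyme Ero1l had 445 against 90.6 CPM and 702 against 80.4 CPM, ratios of 4.92 and 8.74. Of 21 measured hypoxia genes outside glycolysis, 15 were past 1.5-fold higher and 0 lower in the diabetic library (median 1.15), and 16 and 1 in the normoglycemic library (1.28). Of 21 glucose uptake and glycolysis genes, 13 were higher and 1 lower (0.83), and 16 and 2 (1.20). Gapdh, at 2126 CPM in diabetic and 2304 CPM in normoglycemic members, was 1.68-fold and 2.30-fold the other gate cells, Pgk1 3.07-fold and 3.89-fold, and the lactate exporter Slc16a3 1.93-fold and 2.36-fold. Against C1q macrophages the hypoxia list had medians of 1.43 and 1.78 and the glycolysis list 1.36 and 1.70.

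The 4 genes of these 2 lists whose smaller ratio of the 2 libraries was largest, over all members, are shown with the 250 bases before their start, from RefSeq (GRCm38.p6), 5′ to 3′ on the gene's strand, because it makes up most of the window, from 250 bases before to 50 after the start, in which the core motif was sought. Capitals mark ACGTG on either strand, which reads CACGT on the printed strand when it lies on the other one. Egln3 is chr12:54203875-54204124 (minus strand), Bnip3 chr7:138909507-138909756 (minus), Hilpda chr6:29272376-29272625 (plus) and Ero1l, Ero1a in RefSeq, chr14:45318573-45318822 (minus). In Bnip3 the motif matches on both strands and the 2 matches overlap in a palindrome. For a gene with several promoters, the promoter with the most matches is shown.
Egln3: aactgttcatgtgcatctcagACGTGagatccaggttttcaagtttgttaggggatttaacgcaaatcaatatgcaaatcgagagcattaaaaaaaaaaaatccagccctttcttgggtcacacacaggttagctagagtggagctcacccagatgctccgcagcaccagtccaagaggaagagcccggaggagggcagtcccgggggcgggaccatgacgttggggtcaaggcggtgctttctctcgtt
Bnip3: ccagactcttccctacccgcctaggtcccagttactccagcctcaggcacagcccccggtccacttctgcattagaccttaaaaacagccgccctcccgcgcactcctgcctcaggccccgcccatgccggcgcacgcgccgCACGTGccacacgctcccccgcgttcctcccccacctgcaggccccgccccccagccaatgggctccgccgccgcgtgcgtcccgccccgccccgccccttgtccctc
Hilpda: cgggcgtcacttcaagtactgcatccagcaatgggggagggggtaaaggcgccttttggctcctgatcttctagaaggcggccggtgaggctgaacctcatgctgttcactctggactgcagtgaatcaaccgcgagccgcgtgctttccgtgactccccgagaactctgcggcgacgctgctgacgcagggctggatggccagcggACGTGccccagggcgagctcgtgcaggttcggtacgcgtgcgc
Ero1l: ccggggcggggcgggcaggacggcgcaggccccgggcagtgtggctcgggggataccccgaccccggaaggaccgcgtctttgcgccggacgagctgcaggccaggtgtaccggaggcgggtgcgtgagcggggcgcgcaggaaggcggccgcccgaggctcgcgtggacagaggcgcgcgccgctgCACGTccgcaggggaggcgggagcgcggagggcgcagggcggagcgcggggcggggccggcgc
In windows that run a further 50 bases past the start, the motif lay in 19.6% of 32851 mouse promoters and in at least 1 promoter of 21.8% of 27025 genes. It lay in 15 of the 17 measured hypoxia genes that had a promoter entry (88.2%) and in 13 of 20 glycolysis genes (65.0%). The hypoxia list was drawn up from known targets of hypoxia-inducible factor 1, and the background holds all genes, expressed or not. A high share in that list was therefore likely beforehand and says nothing about these cells. A motif match is a string of letters and no evidence of binding in these cells.

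MHC class II antigen presentation genes and interferon genes lay lower in members. Cd74, the invariant chain, had 1433 CPM in diabetic members against 5383 CPM in other gate cells, and 2491 against 11735 CPM in the normoglycemic library. H2-Ab1 had 481 against 1921 CPM and 823 against 4793 CPM, ratios of 0.250 and 0.172. The peptide-loading genes H2-DMa and H2-DMb1 were 0.171-fold and 0.157-fold as high in diabetic members and 0.130-fold and 0.115-fold in normoglycemic members. All 8 measured class II genes were past 1.5-fold lower in each library, with medians of -2.32 and -2.55, and in other gate cells the top 5% of cells held 46.5% and 31.04% of H2-Ab1 UMIs. Of 22 measured type I interferon-stimulated genes outside the rule, 0 were higher and 17 lower in the diabetic library (-0.99), and of 23 in the normoglycemic library 1 and 14 (-0.74). The rule's ceiling on Rsad2, Ifit1, Ifit2 and Ifit3 held for both sides of this comparison. Of the genes inducible by interferon gamma, 1 was higher and 10 lower of 13 in the diabetic library (-1.31), and 3 and 12 of 16 in the normoglycemic library (-1.39). One exception was Cd274, which encodes PD-L1, with 278 CPM in diabetic members against 59.7 CPM in other gate cells, and 402 against 65.2 CPM in the normoglycemic library. Of the alternative activation list, which holds genes both higher and lower in members, 4 were past 1.5-fold higher and 8 lower of 16 in the diabetic library (median -0.52), and 4 and 8 of 17 in the normoglycemic library (-0.35). Arg1, which is counted with that kind of activation but belongs to the rule, had 3512 against 20.1 CPM and 1566 against 10.9 CPM. The secreted protein Retnla was low, at 3.05 against 219 CPM in the diabetic library and 35.2 against 641 CPM in the normoglycemic library. The lysozyme Lyz1 had ratios of 0.0415 and 0.0440, although its near-identical neighbour Lyz2 shares reads with it, and lipoprotein lipase (Lpl) 0.106 and 0.170.

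**Figure D4:**
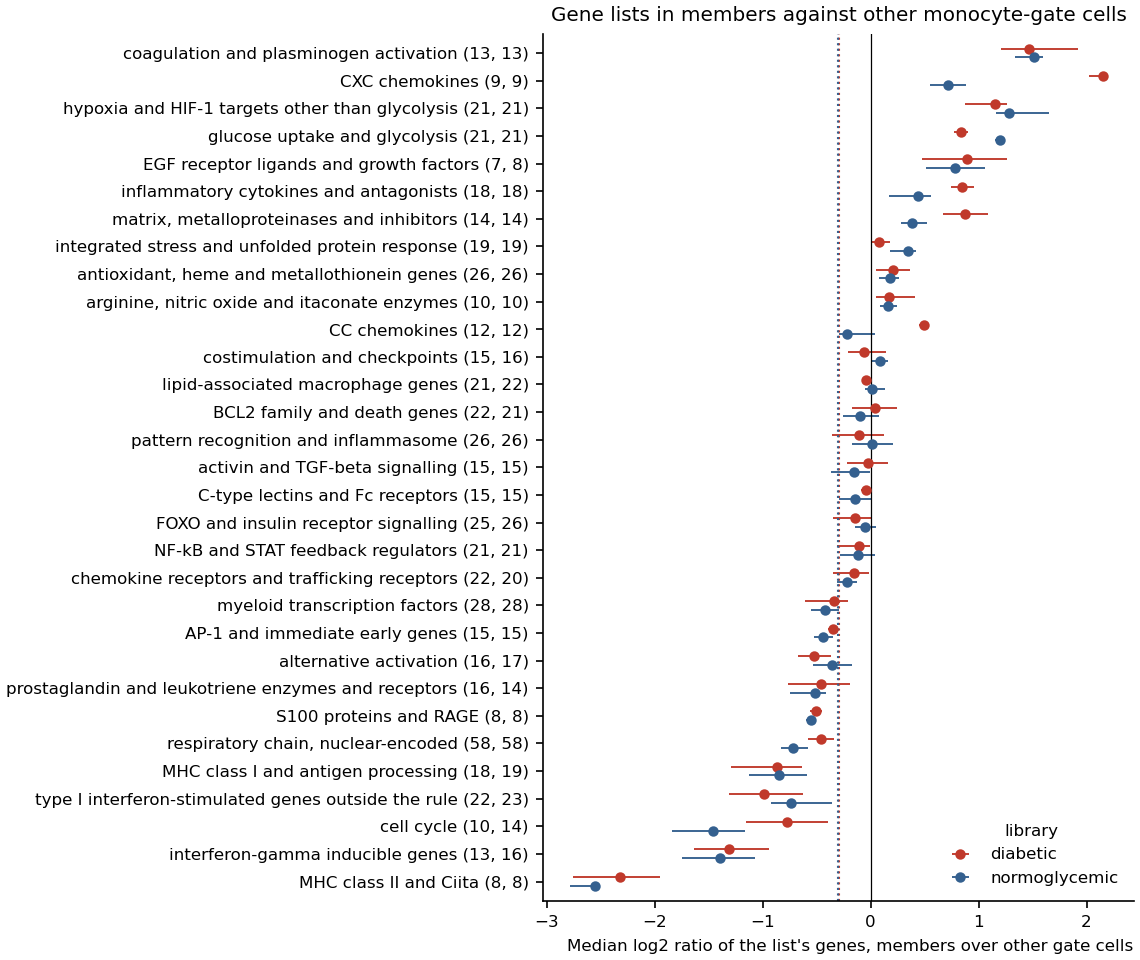
Median log2 ratio (x axis) of the measured genes of each list in leukocyte members over other monocyte-gate leukocytes, diabetic in red and normoglycemic in blue, with the numbers of genes measured in each library in brackets. Bars run between the medians of the genes' lower and upper 95% counting bounds, and dotted lines mark the median of all genes, -0.30 in each library; coagulation, CXC chemokine, hypoxia and glycolysis lists lie to the right and MHC class II and interferon lists to the left.

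Diabetic members were then set against normoglycemic members. Among all members by the rule, 21.6% of 6930 genes were past 1.5-fold higher and 7.84% past 1.5-fold lower in the diabetic library, and the 15 highest by the naming rule were Apod, Ccl11, Muc5b, Col12a1, Prg4, Cxcl12, Cald1, Aspn, Agr2, Prrx1, Lum, Ccn1, Mfap5, Bpifb2 and Serpine2, mostly genes of fibroblasts and of mucous epithelium. In leukocyte members 9.37% of 6342 genes were past 1.5-fold higher and 8.31% lower, and fibroblast markers summed to 12.2 CPM in diabetic and 3.39 CPM in normoglycemic members, against 3623 and 88.3 CPM over all members. That fall was set by the leukocyte screen, which counts fibroblast transcripts. The other monocyte-gate leukocytes had 3.19% of genes higher and 5.71% lower, and the C1q macrophages 2.39% and 3.47%.

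Named genes higher in diabetic leukocyte members came from several lists whose medians were not higher. Of 14 matrix genes 3 were past 1.5-fold higher and 3 lower (median log2 ratio -0.07, or -0.07 in male-called cells). Of 7 EGF receptor ligands and growth factors 1 was higher and 4 lower (-0.99, or -0.45 in male-called cells). The gelatinase Mmp9 had 60.9 CPM in diabetic and 9.26 CPM in normoglycemic members, a ratio of 6.57 (5.09 to 8.58), against 3.05 in the other gate cells, and stood at 78.0 and 49.0 CPM in all other cells of the libraries. The chemokine Cxcl14 had 88.8 and 8.22 CPM, a ratio of 10.8 (8.32 to 14.2), against 9.72 in the other gate cells, and stood at 134 and 5.77 CPM in all other cells. Areg, an EGF receptor ligand, had 109 and 26.5 CPM (4.10, 3.5045 to 4.82), against 2.18 in the other gate cells, and stood at 118 and 94.99 CPM in all other cells. For these 3 genes the level in all other diabetic cells together was above that in diabetic members. In male-called members alone these ratios were 13.8 for Mmp9, 15.01 for Cxcl14 and 2.76 for Areg. All 3 were therefore higher in diabetic cells with male-called members alone as well.

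Pf4 had 1627 CPM in diabetic and 533 CPM in normoglycemic members, a ratio of 3.05 (2.94 to 3.16). In the other gate leukocytes the ratio was 0.849, and in male-called members 3.48. Ccl24, which attracts eosinophils, had 219 and 74.2 CPM, a ratio of 2.95 (2.67 to 3.25), against 0.473 in the other gate cells and 3.65 in male-called members. Both genes were higher in Arg1-led cells (above), and Arg1-led cells were more frequent in the diabetic library. Among Arg1-led cells alone Pf4 had 2443 and 1132 CPM, a ratio of 2.16, and Ccl24 328 and 182 CPM, a ratio of 1.80. Among Inhba-led cells the ratios were 1.31 and 1.68. Areg had a ratio of 1.71 among Arg1-led and 8.66 among Inhba-led cells.

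Of the other named genes on the higher side, the signalling regulator Rgs1 had 208 and 54.8 CPM (3.79), with 250.4 and 218 CPM in all other cells, the caveolar protein Cav1 84.3 and 21.5 CPM (3.92) and the apolipoprotein Apoc2 192 and 59.3 CPM (3.24). In male-called members the ratios were 4.79 for Rgs1, 4.04 for Cav1 and 3.72 for Apoc2. In the other gate cells they were 1.64, 2.30 and 1.99, and in C1q macrophages 1.48, 2.34 and 1.99. The remaining 6 were Hist1h1e, Hist1h4d, Hist1h1c, Gm42418, Gm10076 and Gm10260. They were also higher in the diabetic library outside the members: Gm42418, which overlaps ribosomal RNA sequence, had 30935 and 8641 CPM in members and 18108 and 7734 CPM in all other cells. Hist1h1e had 94.0 and 8.22 CPM in members and 64.6 and 13.9 CPM in all other cells. Their part in the per-million scale of the other genes was not tested beyond the scalings given at the end.

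Among the named genes lower in diabetic leukocyte members, Procr had 40.7 CPM in diabetic and 212 CPM in normoglycemic members, a ratio of 0.192 (0.168 to 0.219). Its ratio was 1.34 (0.995 to 1.81) in the other gate cells and 0.147 in male-called members. Endothelin 1 (Edn1), a vasoconstrictor peptide, had 14.6 and 71.6 CPM, a ratio of 0.204 (0.163 to 0.254), against 2.99 in the other gate cells, where its levels were 4.86 and 1.63 CPM, and 0.139 in male-called members. Within Inhba-led cells Edn1 had 8.76 and 91.2 CPM, a ratio of 0.0961. Within Arg1-led cells the Edn1 ratio was nearer to 1, at 0.509 (0.341 to 0.759). Procr had ratios of 0.157 within Arg1-led and 0.369 within Inhba-led cells. Dectin-2 (Clec4n), a receptor for fungal mannans, had 212 and 609 CPM, a ratio of 0.348 (0.328 to 0.370), and its ratio was 0.292 among Arg1-led, 0.354 among Inhba-led and 0.307 among male-called cells. The interferon-inducible DNA sensor Ifi202b, which has near-identical relatives, had 184 and 536 CPM (0.343). Itgb8, an integrin subunit that activates latent TGF-beta, had 17.2 and 54.9 CPM (0.314), and neuregulin 1 (Nrg1) 59.8 and 156 CPM (0.384). In male-called members the ratios were 0.322 for Ifi202b, 0.336 for Itgb8 and 0.385 for Nrg1. In the other gate cells the ratios were 0.660 for Clec4n, 0.497 for Ifi202b, 1.13 for Itgb8 and 0.997 for Nrg1. In C1q macrophages they were 0.572, 0.708, 0.533 and 0.904.

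Il1rn had 2022 CPM in diabetic and 4582 CPM in normoglycemic members, a ratio of 0.441 (0.433 to 0.450), while the ratios of the cytokines it opposes were 1.03 for Il1a and 1.09 for Il1b. The metalloproteinase inhibitor Timp1 had 580 and 1316 CPM, a ratio of 0.441 (0.424 to 0.457), and the antiprotease-like Wfdc17 1233 and 2709 CPM, a ratio of 0.455. In male-called members the ratios were 0.424 for Il1rn, 0.354 for Timp1 and 0.415 for Wfdc17. Within Arg1-led cells they were 0.555, 0.595 and 0.502, and within Inhba-led cells 0.587, 0.467 and 0.694. In the other gate cells they were 0.550, 0.735 and 1.03, and in C1q macrophages 0.624, 0.582 and 1.31. In all other cells of the libraries Il1rn was also lower in the diabetic library, with 754 CPM against 2036 CPM in the normoglycemic library. Timp1 stood there at 241 and 103 CPM, the other way round, and Wfdc17 at 1870 and 2469 CPM. The remaining named genes on the lower side were Spata7, Flrt3, AA467197, Bcl2a1d, Dmkn and Lmo2. They had ratios from 0.207 to 0.404 in members and from 0.367 to 1.25 in the other gate cells. Bcl2a1d has near-identical copies among which reads can be split. All the genes named here kept their direction in male-called members, where the diabetic library had 321 and the normoglycemic library 453 cells.

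**Figure D5:**
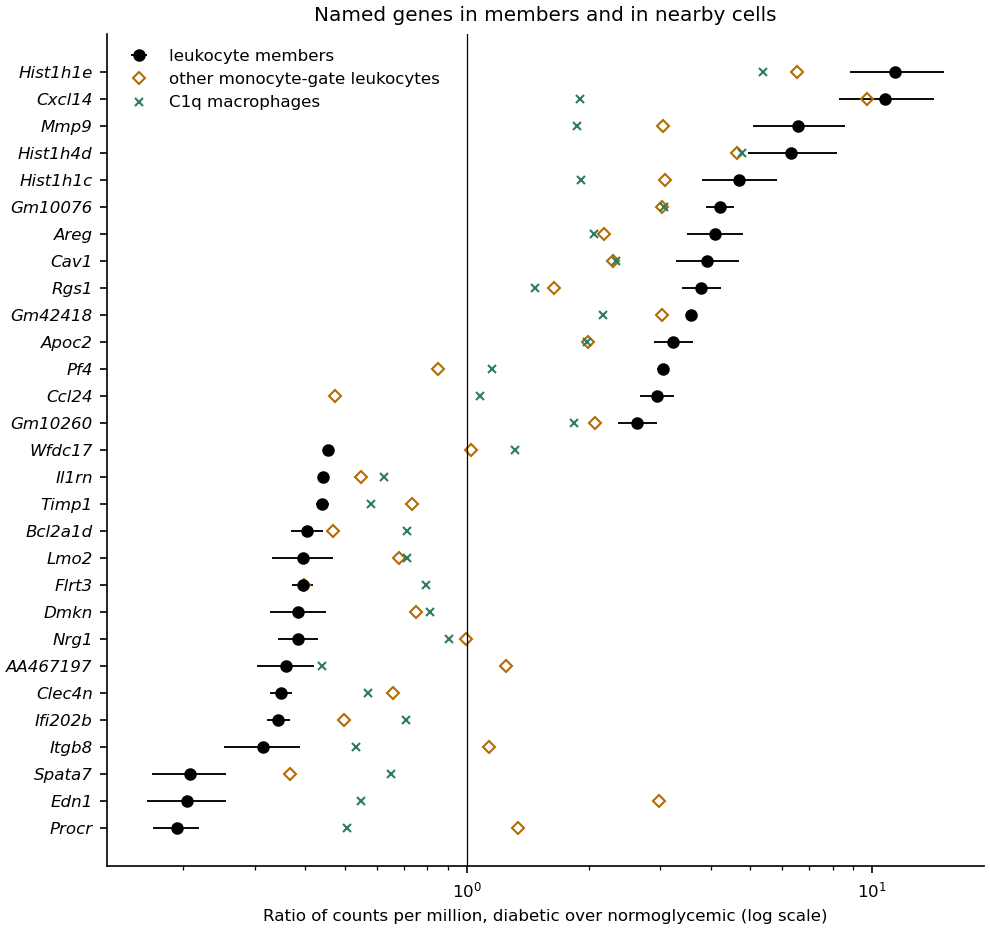
Diabetic over normoglycemic ratio of CPM (x axis, log scale) for the genes named by rule and reported here, in leukocyte members (filled points with 95% counting intervals), other monocyte-gate leukocytes (open diamonds) and C1q macrophages (crosses). Pf4 and Ccl24 lie above 1 in members and below 1 in the other gate cells, and Edn1 the other way round. The point of Procr also lies below 1 in members and above 1 in the other gate cells, where its interval (0.995 to 1.81) spans 1.

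By list, MHC class II genes were lower in diabetic members, although H2-Ab1 UMIs were concentrated in few cells (above). The MHC class I and antigen processing list had a median log2 ratio of -0.17, or -0.19 in male-called cells. Of 6 measured MHC class II genes 0 were past 1.5-fold higher and 4 lower in leukocyte members (median log2 ratio -0.74, or -0.43 in male-called cells), and in all members by the rule 0 and 6 (-0.96). Cd74 had 1433 and 2491 CPM and H2-Aa 613 and 863 CPM. The other gate leukocytes had the same direction with 8 of 8 genes lower (-1.13), and C1q macrophages 6 of 9 (-0.63). Of 15 costimulation and checkpoint genes 0 were higher and 6 lower (-0.53, or -0.56 in male-called cells), among them Cd80 (104 and 163 CPM) and Cd86 (94.7 and 144 CPM), the ligands of CD28, and the other gate cells had a median of -0.41. Of 20 type I interferon-stimulated genes 0 were higher and 8 lower (-0.53, or -0.49 in male-called cells), with Isg15 at 122 and 194 CPM and Ifitm3 at 1055 and 1465 CPM, and the other gate cells had -0.24. Against these, the hypoxia and glycolysis lists lay near the median of all genes (-0.01) at -0.10 and -0.17, with 1 higher and 4 lower of 21 in each. In male-called cells their medians were -0.05 and -0.14. Single members of them differed, as Ndrg1, with 159 CPM in diabetic and 346 CPM in normoglycemic members. The matrix list shows how much the cells set apart weighed: its median was 1.08, with 11 higher and 2 lower of 21, over all members and -0.07, with 3 and 3 of 14, over leukocyte members.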

How the data were processed

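The submitters sorted pooled gingival cells and sequenced them with 10x Genomics 3' v3 chemistry. The deposited matrices hold UMI counts per gene and barcode, unnormalized, for 32285 genes and 4 antibody features. Cell Ranger 6.0.2 and mm10 stand in the submitters' processing notes, whereas the file headers name Cell Ranger 4.0.0. No library was replicated, so no test was made. Members, gene lists and naming rule were chosen with earlier results of these data known.

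From the deposited counts, UMIs were summed over cells and divided by the summed UMIs of the same cells (CPM), with a pseudocount of 0.5 counts where a log2 ratio was taken. Genes needed at least 10 CPM in a compared group. Named diabetic over normoglycemic genes had at least 50 CPM and 50 counts where higher, a level there at least 0.5 times that of the library's other cells, and a 95% interval wholly beyond 1.5-fold. They were ranked by the bound nearer to 1, up to 15 per direction, without rule, mitochondrial and sex-linked genes. Genes named for members over other gate cells had intervals wholly beyond 2-fold in both libraries. From each list up to 4 of the most abundant genes on the side of its median could be given. F3, Ptgs2, Egln3, Cd80, Cd86, Cd274, Slc16a3, Ndrg1, Ccr2, Ly6c2 and the genes named in the closing observations were chosen after their values were seen. Genes with near-identical copies can share reads.

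The leukocyte screen was chosen after the data were seen. Its 15 other transcripts included Col1a1, Col1a2, Col3a1, Dcn, Lum, Sparc, Epcam, Krt14, Krt5, Krt18, Krt8, Muc5b, Agr2 and Acta2, and 1 of them and 1 gene met by the naming rule are not reported here. Quality filters removed 236 diabetic and 332 normoglycemic barcodes. Scrublet, run in Scanpy 1.11.5, called 0 diabetic and 2 normoglycemic doublets against 8.21% and 8.76% expected, so it had not worked and no cell was removed. An alternative took out the 842 and 959 cells with the highest scores. Alternatives to thresholds, scaling (TMM by edgeR 4.0.16 in R 4.3.3, median ratio), filters, depth and sex call were run. The interval code was tested on simulated data. Python 3.11.15, numpy 2.4.6, scipy 1.17.1, pandas 2.3.3 and matplotlib 3.10.9 were used.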

Additional observations from a re-analysis of the deposited data

Results flagged for a closer look

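Some effects ran opposite ways in 2 kinds of cells, and none of these differences could be tested with 1 library a condition. Pf4 had a diabetic over normoglycemic ratio of 3.05 in leukocyte members and 0.849 in the other monocyte-gate leukocytes. Ccl24 had 2.95 in members and 0.473 in the other gate cells, and Edn1 had 0.204 and 2.99, the last resting on levels of 4.86 CPM in diabetic and 1.63 CPM in normoglycemic gate cells.

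Sex calls also split some effects. Il1rn had a ratio of 0.424 in male-called and 1.23 in female-called leukocyte members, Timp1 0.354 and 4.71, and Wfdc17 0.415 and 2.75. The Arg1-led share of members differed between diabetic and normoglycemic cells by 40.1 points among male-called and by -40.6 points among female-called cells. The female-called values rest on 12 normoglycemic members.

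The matrices also hold counts of 4 antibody features, whose targets are not given in the sources used here. They summed to 15936 UMIs in diabetic and 67046 UMIs in normoglycemic members, with medians of 4 and 8 per cell, and were used in no comparison.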

How the results depend on the processing

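No paired analysis was possible because each condition has 1 library. With 1 pool of 4 mice a condition, mouse, sex and glycemia cannot be told apart, and counting intervals understate the error. Values here are for all members by the rule unless leukocyte members are named, and the causes were not tested except where the alternative's own construction shows them. Over all alternatives, 1834 values moved by less than their counting interval or 1.5 times, 600 moved further and 16 changed direction. In leukocyte members these were 1872, 405 and 13. Both sets of totals repeat the values of members over other gate cells that were obtained without the highest doublet scores.

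Scaling by TMM shifted each diabetic over normoglycemic log2 ratio of all members by -0.20 and median ratio scaling by -0.20, against -0.01 and -0.05 in leukocyte members. Genes past 1.5-fold lower in diabetic members, 543 as reported, were 1170 under TMM and 1174 under median ratio scaling. At 2-fold 768 genes were higher and 116 lower, at 50 CPM or more 354 and 305, with no low-count filter 6996 and 2347, and with leukocyte transcripts required 594 were higher. Among female-called cells 2809 were lower. Genes lower in members than in other gate cells in both libraries, 446 as reported, were 239 in female-called cells, 714 at similar depth, 297 with a member sum of at least 3 and 140 under median ratio scaling, which gave 436 higher against 214.

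The MHC class II median of diabetic over normoglycemic members, -0.96 as reported, was -1.05 with S100a8 and S100a9 under 1%, -1.12 under TMM, -1.12 under median ratio scaling, -2.96 in female-called and -0.66 in male-called cells. It was -1.13 with cells weighted alike, -1.32 without the highest doublet scores, -0.74 with leukocyte transcripts required, -0.69 and -1.23 with member sums of at least 10 and 3, and -0.77 with thresholds per 10000 UMIs. The costimulation median was -0.95 under TMM, -0.95 under median ratio scaling, -0.44 in female-called cells and -0.45 with no filter.

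In diabetic members over other gate cells the glycolysis median was 1.03 at similar depth, 0.99 with cells weighted alike, 1.03 without the highest doublet scores, 0.83 with leukocyte transcripts required, 1.33 under median ratio scaling, 1.002 and 0.86 with member sums of at least 10 and 3, and 1.09 with thresholds per 10000 UMIs. The class II median was -2.37, -2.59 and -2.78 under the first 3 of these and -1.55 under median ratio scaling. The hypoxia median was 0.92 in male-called cells and 1.53 under median ratio scaling. In the normoglycemic library glycolysis was 1.26 with S100a8 and S100a9 under 1%, 0.83 in female-called cells, 1.26 against gate cells with none of the 4 genes, 1.65 under median ratio scaling and 1.16 with a member sum of at least 3. Class II was -1.11 in female-called and -2.03 in male-called cells, -2.88 at similar depth, -3.10 without the highest doublet scores, -1.99 under median ratio scaling and -2.30 with a member sum of at least 3, and hypoxia was 1.76 under median ratio scaling.

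Among female-called cells, with 12 normoglycemic members, the members' share differed by 6.87 points of quality-filtered and 28.7 points of gate cells, and the Arg1-led share by -40.6 points (-38.4 in leukocyte members), against 40.1 in male-called cells. Diabetic over normoglycemic log2 ratios there changed direction for Agr2 (-0.64), Dmkn (1.06), Edn1 (0.64), Gm15056 (3.85), Ifi202b (0.22), Il1rn (0.0034), Procr (0.75), Spata7 (1.51) and Wfdc17 (1.17). In female-called leukocyte members they did so for AA467197 (0.17), Dmkn (1.37), Edn1 (0.95), Ifi202b (0.36), Il1rn (0.30), Procr (0.98), Rgs1 (-0.20), Spata7 (1.62), Timp1 (2.22) and Wfdc17 (1.45). Over other gate cells Gm15056 changed to -1.89 (-1.98 in leukocyte members) and the diabetic CXC chemokine median to -0.41. Requiring leukocyte transcripts changed the direction of Serpine2 (-1.49), of Plpp3 over other gate cells (3.25) and of the matrix median (-0.066). A member sum of at least 3 changed Plpp3 to 0.18, and at 50 CPM or more the EGF receptor ligand median of leukocyte members was 0.21.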

Other observations

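Some cytokines of low abundance differed between the libraries and were picked after their values were seen. The subunits of IL-12 and IL-23 did not go one way in leukocyte members. Il23a, the subunit particular to IL-23, had 117 CPM in diabetic and 47.6 CPM in normoglycemic members, a ratio of 2.46 (2.17 to 2.79). Il12b, the subunit that IL-12 and IL-23 share, had 29.0 and 1.04 CPM. Il12a, the subunit particular to IL-12, had 48.1 and 94.4 CPM. Lif, a cytokine of the IL-6 family, had 289 CPM in diabetic and 135 CPM in normoglycemic members, whereas Csf3 had 482 and 850 CPM.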
